A study of Bos taurus with 14 samples.

Results

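Muscle fibres burn long-chain fatty acids that reach them from the blood, and the genes described here serve the steps by which those fatty acids arrive. Fatty acids are released from circulating triglyceride at the capillary wall, cross the cell membrane with the help of transport proteins, are held in the cytosol by small binding proteins, and are coupled to coenzyme A before they can be oxidised or stored. Of 10 genes listed by these roles, 9 have a probe set by name on the bovine array, and they are read by 13 of the 24016 probe sets tested. A probe set is the group of short oligonucleotide probes that reads 1 transcript, and every probe set of a listed gene was kept. The annotation named 8 of the genes, and the probe set of *GPIHBP1* took its name from the study's own annotation. *DBI*, which encodes the acyl-CoA binding protein of the cytosol, has no probe set by that name in the annotation used here and was not analysed.

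Expression was measured in *M. longissimus dorsi* (LD) muscle, the long loin muscle of the back, with 1 Affymetrix GeneChip Bovine Genome Array per animal. The outdoor/pasture-fed group held 7 heifers that grazed for the year before slaughter, and the 7 heifers of the indoor/concentrate-fed group lived in a shed throughout on a cereal straw (barley) and concentrate diet. All were Charolais × Limousin crossbreds assigned at random, and muscle was sampled soon after slaughter. Diet, grazing, movement and housing changed together between the groups and cannot be told apart, and each system held several management groups that the labels do not give, and the tests took each animal as a unit of its own. The samples are whole muscle, in which fewer cells of a type and less RNA per cell cannot be told apart.

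Values are log2 expression values as deposited, and a difference is always outdoor/pasture-fed minus indoor/concentrate-fed. The authors' summary method gave nearly the same value on every array for most probe sets, and 9623 probe sets (40.1%) had a standard deviation (SD) over the 14 arrays of more than 0.01. These are called the varying probe sets. The skeletal muscle markers *ACTA1*, at 14.11, and *CKM*, at 13.81, were high and near-constant on all arrays. They are among the probe sets that the summary method left near-constant, so this does not show equal muscle content. The correlation between arrays over the varying probe sets was 0.952 to 0.990. Precision is limited by the number of arrays.

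Genes of all 4 steps had higher means in the outdoor/pasture-fed cattle. At least 1 probe set of *LPL*, *GPIHBP1*, *CD36*, *SLC27A6*, *FABP5* and *ACSL3* had an unadjusted p under 0.05 with the higher mean outdoors, while *FABP3* and *ACSL1*, the abundant muscle forms of their families, did not, and no difference of *SLC27A1* could be measured. Of the 13 probe sets, 11 varied over the arrays, and 10 of these 11 had the higher mean outdoors, where 47.5% of all varying probe sets did. Their median difference was 0.41, against -0.01 over all varying probe sets. An unadjusted p under 0.05 from limma with the higher mean outdoors was found for 9 of the 11, against 9.21% of all varying probe sets. None of the 11 was lower outdoors at that level, against 10.4%. Over all 24016 probe sets the background was 5.35% higher and 6.07% lower. Probe sets of 1 gene are not separate evidence, and by gene the count was 6 of the 8 that vary. The members were chosen with earlier results of these data known. The study had already named *GPIHBP1*, *FABP5* and *ACSL3* as higher outdoors on these arrays. The background was not selected in that way, so the counts and the median are descriptions of the list and not independent evidence.

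After Benjamini-Hochberg adjustment over all 24016 probe sets, none of the 13 passed an adjusted p of 0.05 from limma, and 0.0167% of all probe sets did. In the fit to the varying probe sets, the nearest available to the study's own filter, 3 of the 11 passed, 1 each for *GPIHBP1*, *FABP5* and *ACSL3*, against 0.343% of all. The study chose these 3 probe sets on the same arrays, so that their calls are not independent evidence. The SD cut-off that defines the varying probe sets was also set with earlier results of these data known. The call of *GPIHBP1* depended on it. With an SD above 0.001 its adjusted p was 0.0512 from limma, and 2 member probe sets passed. In the 3 probe sets that passed among the varying, the lowest animal outdoors still lay above the highest indoors. That pattern was seen in that direction in 0.488% of the varying probe sets.

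**Figure D1:**
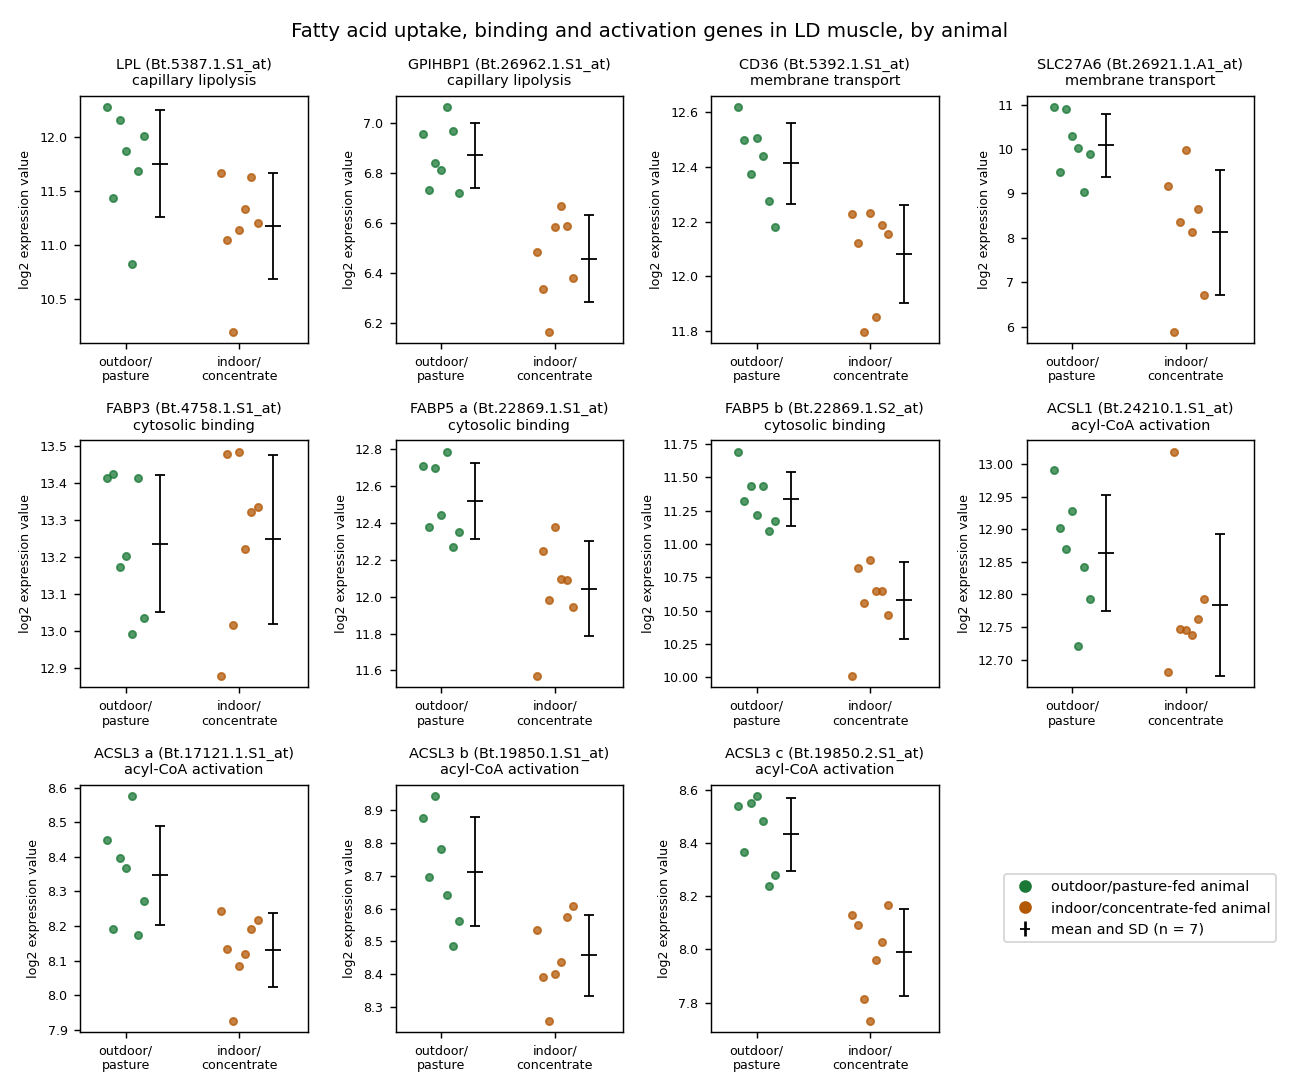
Log2 expression values (vertical axis of each panel, scales differ) of the 11 varying probe sets in 7 outdoor/pasture-fed (left, green) and 7 indoor/concentrate-fed animals (right, brown); points are animals, and the black bars give the mean and SD. The groups are separate for *GPIHBP1*, for probe set b of *FABP5* and for probe set c of *ACSL3*, and they overlap in all other panels.

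**Figure D2:**
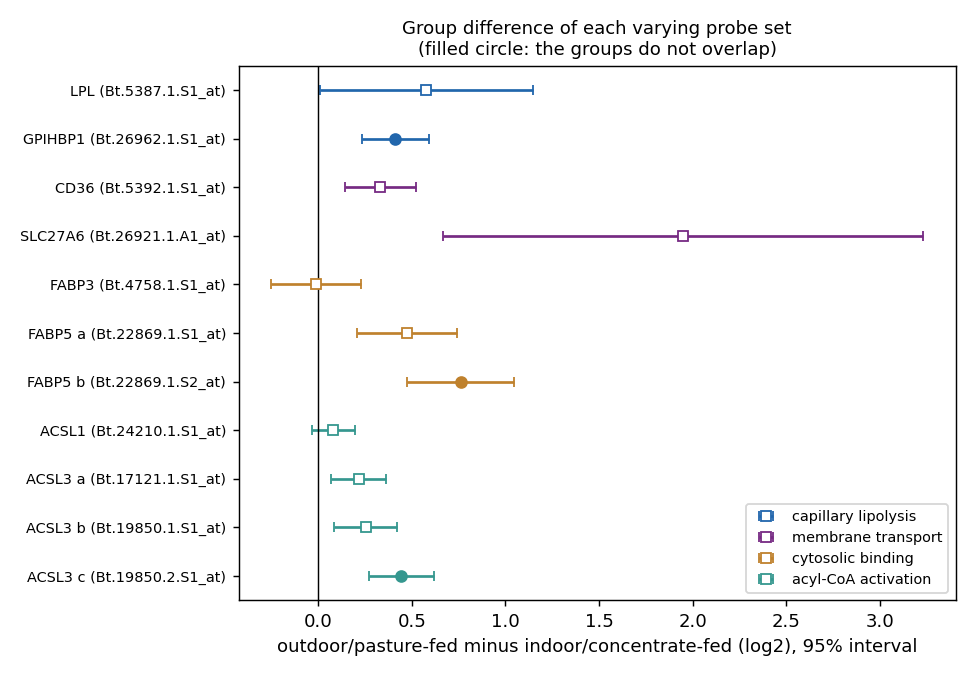
Difference between the groups (horizontal axis, log2, outdoor/pasture-fed minus indoor/concentrate-fed) and the 95% interval from limma for each of the 11 varying probe sets, coloured by step. *SLC27A6* has the largest difference and the widest interval, and the intervals of *FABP3* and *ACSL1* include 0.

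The first step was compared through *LPL* and *GPIHBP1*. Lipoprotein lipase, encoded by *LPL* (chromosome 8, 66989665 to 67016694 on ARS-UCD2.0), splits the triglyceride of circulating lipoproteins, and muscle fibres and fat cells both make it. Its values were 10.83 to 12.27 (median 11.87) in outdoor/pasture-fed cattle and 10.20 to 11.66 (median 11.20) in indoor/concentrate-fed cattle. The groups overlapped, since outdoor/pasture-fed replicates 2 and 5, at 11.43 and 10.83, lay within the indoor/concentrate-fed range, while the other 5 lay above it. The mean was 11.75 ± 0.50 outdoors and 11.17 ± 0.49 indoors (SD, n = 7 each), a difference of 0.58 (SE 0.26, 95% interval 0.01 to 1.15, adjusted p = 0.427 from limma, exact permutation p = 0.0466). Indoor/concentrate-fed replicate 3, at 10.20, was far below its group, and without it the difference was 0.42. Leaving out each array in turn gave unadjusted p-values from limma of 0.00859 to 0.0935.

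The difference of *LPL* was not of 1 direction over the arrays, but the other direction rested on 1 animal. Outdoor/pasture-fed replicates 5 and 6 and indoor/concentrate-fed replicates 4, 5 and 6 are 5 arrays numbered consecutively in the study's quality control sheet, where a spiked-in control was brighter on them than on the others. They were set apart here on that ground alone, since neither the labels nor the sheet name them as a batch. Within these 5 arrays *LPL* averaged 11.25 outdoors (n = 2) and 11.37 indoors (n = 3), a difference of -0.11. Outdoor/pasture-fed replicate 5 was at 10.83. Outdoor/pasture-fed replicate 6, at 11.68, lay above the 3 indoor/concentrate-fed animals, at 11.14, 11.33 and 11.63. On the other arrays it averaged 11.95 outdoors (n = 5) and 11.03 indoors (n = 4), a difference of 0.92. With the 5 arrays as a block the difference was 0.56 (unadjusted p = 0.0648 from limma).

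*GPIHBP1* (chromosome 14, 1348163 to 1350113) encodes a lipid-anchored protein through which the endothelium captures lipoprotein lipase and brings it to the side that faces the blood. It was at 6.72 to 7.06 (median 6.84) in outdoor/pasture-fed cattle and at 6.16 to 6.67 (median 6.48) in indoor/concentrate-fed cattle. These values lay around the medians of the arrays, 6.77 to 6.84, in the lower part of a scale of 4.95 to 14.8. The groups did not overlap, and the narrowest gap lay between outdoor/pasture-fed replicate 7, at 6.72, and indoor/concentrate-fed replicate 5, at 6.67. The mean was 6.87 ± 0.13 outdoors and 6.46 ± 0.17 indoors (SD, n = 7 each), which is 1.33-fold higher outdoors (95% interval 1.18 to 1.51). The difference of 0.41 (SE 0.08) had an adjusted p = 0.147 from limma over all and 0.0471 among the varying, and the exact permutation p of 0.000583 is the smallest that 7 against 7 animals can give. It was 0.40 within the 5 consecutively numbered arrays and 0.47 on the other arrays. In the fit to the varying probe sets the call was lost on leaving out any of outdoor/pasture-fed replicates 1, 3, 4, 5 and 6 or indoor/concentrate-fed replicates 1, 2, 3 and 7, with adjusted p-values from limma up to 0.104 and differences of 0.36 to 0.45.

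The correlation of the lipase with its carrier was computed over the animals of each system. In indoor/concentrate-fed cattle *LPL* and *GPIHBP1* had a Pearson r of 0.78 (exact permutation p = 0.0395, adjusted p = 0.105 over 16 correlations) and a Spearman rho of 0.68 (exact permutation p = 0.110, adjusted p = 0.250), and r was 0.58 without the 2 animals farthest from the median of *LPL*. In outdoor/pasture-fed cattle r was -0.40 (exact permutation p = 0.385, adjusted p = 0.474), rho was -0.25 (exact permutation p = 0.595, adjusted p = 0.634), and r was -0.06 without the 2 farthest animals. Neither correlation passed the adjustment, and the difference between the systems was not tested. The group difference of *GPIHBP1* minus that of *LPL* was -0.17 (exact permutation p = 0.524, adjusted p = 0.524 over 3 pairs of genes), so that no difference between the 2 was shown.

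Markers of capillary endothelium were higher outdoors beside *GPIHBP1*. Of 10 markers, 9 have a probe set, 7 vary, and all 7 had an unadjusted p under 0.05 with the higher mean outdoors, against 9.21% of varying probe sets, although none passed the adjusted threshold. *PECAM1*, an adhesion molecule of endothelial junctions, averaged 10.22 ± 0.26 outdoors and 9.68 ± 0.15 indoors (SD, n = 7 each, adjusted p = 0.147 from limma, 0.0516 among the varying). *CDH5*, the cadherin of the same junctions, averaged 10.61 ± 0.24 outdoors and 10.01 ± 0.32 indoors (SD, n = 7 each, adjusted p = 0.200 from limma, 0.0739 among the varying). The mean of the 7 markers was 8.82 to 9.26 in outdoor/pasture-fed animals and 8.31 to 8.84 in indoor/concentrate-fed animals, while *VWF* and *EGFL7* were near-constant on all arrays. The part of the endothelial markers in the differences of *GPIHBP1*, *CD36* and the other genes was not tested.

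The second step was compared through *CD36* and the transport proteins *SLC27A1* and *SLC27A6*. *CD36* (chromosome 4, 40380301 to 40474070), the fatty acid translocase, binds fatty acids at the surface of capillary endothelium and muscle fibres. Its values were 12.18 to 12.62 (median 12.44) in outdoor/pasture-fed cattle and 11.80 to 12.23 (median 12.15) in indoor/concentrate-fed cattle. Only outdoor/pasture-fed replicate 7, at 12.18, lay within the indoor/concentrate-fed range, and indoor/concentrate-fed replicates 3 and 5 were the lowest, at 11.80 and 11.85. The mean was 12.41 ± 0.15 outdoors and 12.08 ± 0.18 indoors (SD, n = 7 each), a difference of 0.33 (SE 0.09, 95% interval 0.14 to 0.52, adjusted p = 0.219 from limma, 0.0900 among the varying, exact permutation p = 0.00291). The difference was 0.27 within the 5 consecutively numbered arrays and 0.36 on the other arrays, and 0.28 to 0.37 on leaving out each array in turn.

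*SLC27A6* (chromosome 7, 25036903 to 25117792) encodes a fatty acid transport protein known from the human heart, and its difference was the largest of all 9623 varying probe sets. It was at 9.03 to 10.94 (median 10.03) in outdoor/pasture-fed cattle and at 5.89 to 9.99 (median 8.36) in indoor/concentrate-fed cattle. Outdoor/pasture-fed replicates 1 and 3, at 10.94 and 10.90, were the highest, and indoor/concentrate-fed replicates 2 and 7, at 5.89 and 6.71, were the lowest. The values of indoor/concentrate-fed replicates 2 and 7 lay below the medians of the arrays, 6.77 to 6.84, so the fold change rests partly on low values. The groups overlapped, because indoor/concentrate-fed replicates 1 and 4, at 9.16 and 9.99, lay above the lowest outdoor/pasture-fed animal. The mean was 10.08 ± 0.70 outdoors and 8.13 ± 1.41 indoors (SD, n = 7 each), which is 3.86-fold higher outdoors with a 95% interval of 1.59 to 9.38. The difference of 1.95 (SE 0.59) had an adjusted p = 0.249 from limma, 0.101 among the varying probe sets, and an exact permutation p = 0.00524.

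The size of the *SLC27A6* difference rested on a few indoor/concentrate-fed animals more than its direction did. On leaving out each array in turn it was 1.58, without indoor/concentrate-fed replicate 2, to 2.26, without indoor/concentrate-fed replicate 4, and unadjusted p-values from limma were 0.00160 to 0.0140. Without indoor/concentrate-fed replicate 2 it ranked 7 by size among the varying probe sets, without indoor/concentrate-fed replicate 7 it ranked 3, and without any other array it ranked 1 or 2. It averaged 9.53 outdoors and 8.93 indoors within the 5 consecutively numbered arrays, a difference of 0.60, and 10.30 outdoors and 7.53 indoors on the other arrays, a difference of 2.77, and with the 5 arrays as a block the difference was 2.01. By its SD of 1.47 over the 14 arrays it ranked 16 among the varying probe sets.

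*SLC27A1* (chromosome 7, 5605374 to 5644637) encodes the best known fatty acid transport protein of skeletal muscle, and both of its probe sets were near-constant. Probe set a was at 6.76 and probe set b at 5.87 on every array of both groups. The summary method gives such values where it finds no common signal among the probes of a set, and no difference of *SLC27A1* could be measured. The planned comparisons of *CD36* and of *SLC27A6* with it were therefore not made.

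The third step was compared through the binding proteins *FABP3* and *FABP5*. *FABP5* (chromosome 14, 44488912 to 44494877), a form also known from endothelium, skin and macrophages, had the higher mean outdoors by both of its probe sets, a (Bt.22869.1.S1_at) and b (Bt.22869.1.S2_at). For probe set b the values were 11.10 to 11.69 (median 11.33) in outdoor/pasture-fed cattle and 10.01 to 10.88 (median 10.65) in indoor/concentrate-fed cattle, with no overlap. For probe set a they were 12.27 to 12.78 (median 12.44) outdoors and 11.57 to 12.38 (median 12.09) indoors, and the overlap came from indoor/concentrate-fed replicate 4, at 12.38, which lay above 3 outdoor/pasture-fed animals. By both probe sets indoor/concentrate-fed replicate 1 was the lowest animal, at 10.01 and 11.57.

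Probe set b averaged 11.34 ± 0.20 outdoors and 10.58 ± 0.29 indoors (SD, n = 7 each), 1.69-fold higher outdoors (95% interval 1.39 to 2.07). Its difference of 0.76 (SE 0.13) had an adjusted p = 0.105 from limma over all, 0.0249 among the varying, and the smallest possible exact permutation p of 0.000583. Probe set a averaged 12.52 ± 0.21 outdoors and 12.04 ± 0.26 indoors (SD, n = 7 each), a difference of 0.48 (SE 0.12, adjusted p = 0.213 from limma, 0.0831 among the varying, exact permutation p = 0.00291). The call of probe set b among the varying probe sets was lost without any one of outdoor/pasture-fed replicates 3 and 4 and of indoor/concentrate-fed replicates 3 and 7 (adjusted p up to 0.0694 from limma), with differences of 0.67 to 0.81 on leaving out each array. Within the 5 consecutively numbered arrays the differences were 0.34 for probe set a and 0.54 for probe set b, and on the other arrays 0.58 and 0.90.

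The probe sets of *FABP5* ordered the animals alike but spread them differently. Pearson r between them was 0.84 over the outdoor/pasture-fed animals (exact permutation p = 0.0157, adjusted p = 0.0627) and 0.99 over the indoor/concentrate-fed animals (exact permutation p = 0.000198, adjusted p = 0.00317). Spearman rho was 0.93 outdoors (exact permutation p = 0.00675, adjusted p = 0.0540) and 1 indoors (exact permutation p = 0.000397, adjusted p = 0.00635), and r without the 2 farthest animals was 0.88 outdoors and 0.99 indoors. Probe set a minus probe set b was 1.01 to 1.35 on the outdoor/pasture-fed arrays and 1.42 to 1.56 on the indoor/concentrate-fed arrays, ranges that did not overlap. Both read the same gene, so they are not separate evidence.

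*FABP3* (chromosome 2, 122287099 to 122294639), the main binding protein of heart and skeletal muscle, had nearly the same mean in both groups. It was at 12.99 to 13.42 (median 13.20) in outdoor/pasture-fed cattle and at 12.88 to 13.48 (median 13.32) in indoor/concentrate-fed cattle, and the outdoor/pasture-fed range lay wholly within the indoor/concentrate-fed range. The mean was 13.24 ± 0.18 outdoors and 13.25 ± 0.23 indoors (SD, n = 7 each), a difference of -0.01 (SE 0.11, 95% interval -0.25 to 0.23, adjusted p = 0.984 from limma, exact permutation p = 0.917). The difference was -0.14 within the 5 consecutively numbered arrays and 0.07 on the other arrays.

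The difference between the groups was larger for *FABP5* than for *FABP3*. Taken within each animal, probe set a of *FABP5* minus *FABP3* was higher outdoors by 0.49 (exact permutation p = 0.00408, adjusted p = 0.0122 over 3 pairs of genes), and 5 of 7 outdoor/pasture-fed animals lay above every indoor/concentrate-fed animal. On leaving out each array in turn it was 0.40 to 0.56, with exact permutation p-values of 0.00117 to 0.00816. The study had named *FABP5* as differing on these same arrays and, by quantitative PCR, in a larger set of animals that included these. The members were chosen with earlier results known. The adjustment over 3 pairs does not allow for that choice, so this contrast is not independent evidence.

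The fourth step was compared through the acyl-CoA synthetases *ACSL1* and *ACSL3*. *ACSL3* (chromosome 2, 111037664 to 111113609) encodes a synthetase of the endoplasmic reticulum and lipid droplets, and its 3 probe sets, a (Bt.17121.1.S1_at), b (Bt.19850.1.S1_at) and c (Bt.19850.2.S1_at), all had the higher mean outdoors. For probe set c the values were 8.24 to 8.58 (median 8.48) in outdoor/pasture-fed cattle and 7.73 to 8.17 (median 8.03) in indoor/concentrate-fed cattle, with no overlap, and indoor/concentrate-fed replicates 4 and 3 were the lowest, at 7.73 and 7.81. Probe set a was at 8.17 to 8.57 (median 8.37) outdoors and 7.93 to 8.24 (median 8.13) indoors. Probe set b was at 8.49 to 8.94 (median 8.70) outdoors and 8.26 to 8.61 (median 8.44) indoors. By probe sets a and b 5 of 7 outdoor/pasture-fed animals lay above every indoor/concentrate-fed animal, and outdoor/pasture-fed replicate 6 was the lowest of its group by all 3.

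Probe set c averaged 8.43 ± 0.14 outdoors and 7.99 ± 0.16 indoors (SD, n = 7 each), 1.36-fold higher outdoors (95% interval 1.21 to 1.54). Its difference of 0.44 (SE 0.08) had an adjusted p = 0.123 from limma over all, 0.0286 among the varying, and the smallest possible exact permutation p of 0.000583. Probe set b differed by 0.26 (SE 0.08, adjusted p = 0.250 from limma, 0.114 among the varying, exact permutation p = 0.00758) and probe set a by 0.22 (SE 0.07, adjusted p = 0.262, 0.124 among the varying, exact permutation p = 0.00699). The call of probe set c in that fit did not hold without any one of outdoor/pasture-fed replicates 1, 3, 4 and 5 and of indoor/concentrate-fed replicates 3 and 5 (adjusted p up to 0.0758 from limma), with differences of 0.40 to 0.48. Within the 5 consecutively numbered arrays the 3 differences were 0.45, 0.09 and 0.24, and on the other arrays 0.41, 0.32 and 0.21, in the order c, b, a.

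The 3 probe sets of *ACSL3* were alike over the animals to differing degrees. Pearson r was 0.46 to 0.87 over the outdoor/pasture-fed animals and 0.71 to 0.92 over the indoor/concentrate-fed animals, and of these 6 values 1 passed the adjustment. That was probe set a with probe set b indoors, with r of 0.92 (exact permutation p = 0.00536, adjusted p = 0.0429), rho of 0.79 (exact permutation p = 0.0480, adjusted p = 0.128) and r of 0.93 without the 2 farthest animals.

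*ACSL1* (chromosome 27, 15178952 to 15243838) encodes the main long-chain synthetase of skeletal muscle and heart, as known from mice. It was at 12.72 to 12.99 (median 12.87) in outdoor/pasture-fed cattle and at 12.68 to 13.02 (median 12.75) in indoor/concentrate-fed cattle. Indoor/concentrate-fed replicate 2, at 13.02, was the highest of the 14 animals, and the next of its group was at 12.79. The mean was 12.86 ± 0.09 outdoors and 12.78 ± 0.11 indoors (SD, n = 7 each), a difference of 0.08 (SE 0.05, 95% interval -0.03 to 0.19, adjusted p = 0.617 from limma, exact permutation p = 0.159). Without indoor/concentrate-fed replicate 2 it was 0.12, with an unadjusted p of 0.0104 from limma.

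A larger difference of *ACSL3* than of *ACSL1* was not shown by the test, which took 1 of the 3 probe sets of *ACSL3*. Probe set b of *ACSL3*, the one of the highest mean, minus *ACSL1* differed by 0.18 between the groups (exact permutation p = 0.0594, adjusted p = 0.0892 over 3 pairs of genes), and 4 of 7 outdoor/pasture-fed animals lay above every indoor/concentrate-fed animal. The exact permutation p was 0.0245 to 0.124 on leaving out each array in turn. Probe sets a and c, with group differences of 0.22 and 0.44, were not compared with *ACSL1*, so the result holds for probe set b only.

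Some animals stood at the same end for many of these genes. Outdoor/pasture-fed replicate 1 was among the 3 highest of the 14 animals in 10 of the 11 varying probe sets, and indoor/concentrate-fed replicate 3 was among the 3 lowest in 9. Indoor/concentrate-fed replicate 3 had the lowest value of all animals for *LPL*, *GPIHBP1*, *CD36* and 2 probe sets of *ACSL3*. Indoor/concentrate-fed replicate 1 had the lowest for both probe sets of *FABP5*, for *FABP3* and for *ACSL1*. No outdoor/pasture-fed animal was the lowest of the 14 for any of the 11 probe sets.

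These animals also stood at an end of some marker lists. The endothelial mean was highest of all animals in outdoor/pasture-fed replicate 1, at 9.26, and lowest in indoor/concentrate-fed replicate 3, at 8.31. The mean of 5 slow fibre markers was lowest in indoor/concentrate-fed replicate 3, at 12.84, where the group's next animal was at 13.37. The mean of 7 adipocyte markers was highest in indoor/concentrate-fed replicate 1, at 7.77, and the mean of 2 red blood cell markers was lowest in outdoor/pasture-fed replicate 1, at 6.17. None of these 3 animals was at an end of the macrophage and leukocyte, fast fibre or skeletal muscle lists. The part of these markers in the values of single animals was not tested.

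**Figure D3:**
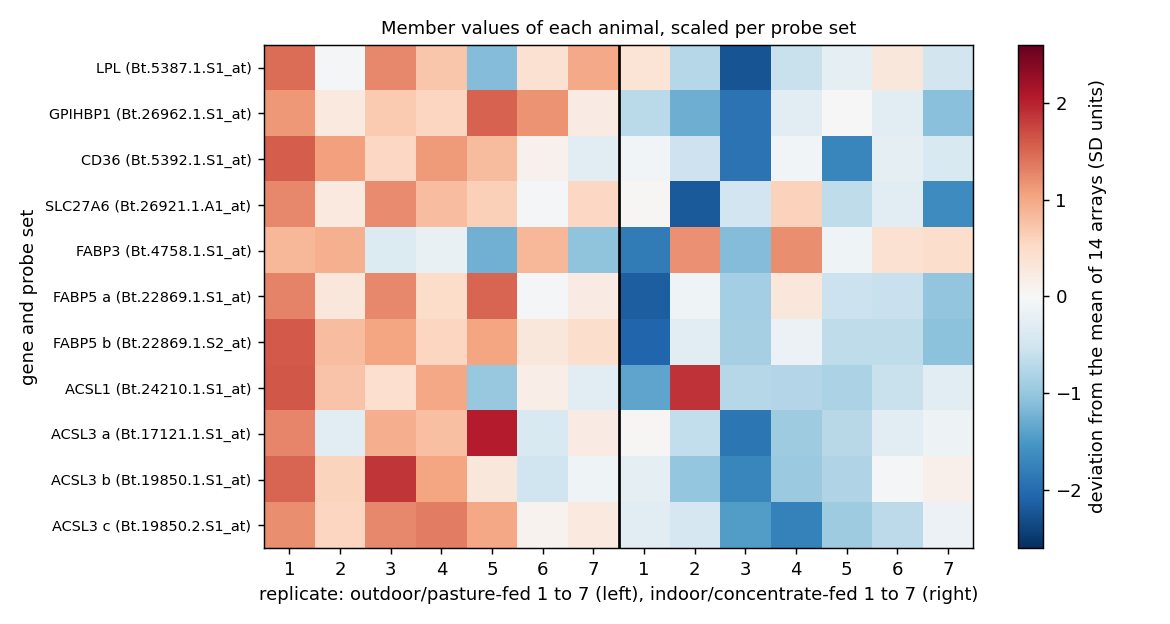
Each animal's value for the 11 varying probe sets (rows), as the deviation from the mean of the 14 arrays in SD units (red above, blue below), with outdoor/pasture-fed replicates 1 to 7 left of the line and indoor/concentrate-fed replicates 1 to 7 right of it. Red prevails on the left and blue on the right except for *FABP3*, and indoor/concentrate-fed replicate 3 is among the 3 lowest animals in 9 of 11 rows.

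**Figure D4:**
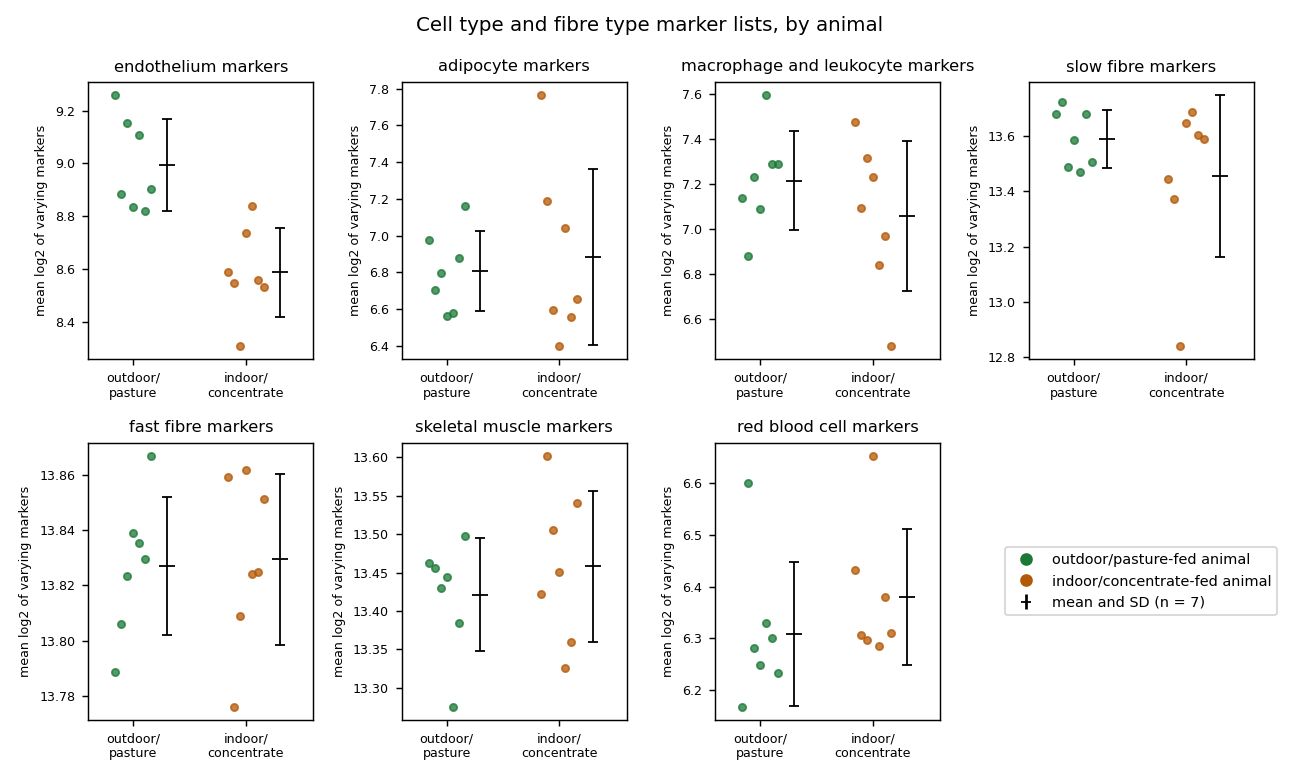
Mean log2 value of the varying markers of each list (vertical axis, scales differ) in 7 outdoor/pasture-fed (left, green) and 7 indoor/concentrate-fed animals (right, brown), with the mean and SD as black bars. The endothelial mean lies at 8.82 to 9.26 outdoors and 8.31 to 8.84 indoors, and the groups overlap in every list.

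No marker list other than endothelium had all of its varying markers higher outdoors at an unadjusted p under 0.05 from limma. Of 7 varying adipocyte markers and 6 varying macrophage and leukocyte markers, none had an unadjusted p under 0.05 in the fit to the varying probe sets. Of 5 varying slow fibre markers, 1 was higher outdoors at that level, *ATP2A2*, the slow fibre calcium pump, with a difference of 0.16. All 5 slow fibre markers and all 6 macrophage and leukocyte markers had the higher mean outdoors. Their list means differed by 0.14 and 0.16, against 0.41 for endothelium. The lower mean outdoors was found for 5 of the 7 adipocyte markers, the 2 skeletal muscle markers and the 2 red blood cell markers. Of 5 varying fast fibre markers, 1 was higher, *MYH1*, a fast myosin heavy chain, with a difference of 0.14, while the other 4 had the lower mean outdoors. In the fit to all probe sets 3 of these 4 had an unadjusted p under 0.05 from limma, *TNNC2*, *ACTN3* and *TNNI2*. Their differences were -0.01, -0.04 and -0.07, and 6.07% of all probe sets were lower outdoors at that level. In the fit to the varying probe sets none of the 4 was, against 10.4% of the varying probe sets. *MYH1* and these 3 are named because their values were seen, as is *ATP2A2*. None of the 2 varying skeletal muscle markers and the 2 varying red blood cell markers was past that level. The mean of the adipocyte markers was 6.56 to 7.16 outdoors and 6.40 to 7.77 indoors.

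Other genes of the same steps were counted to see how far the difference reached. Of 56 such genes, 41 have a probe set and 24 of these vary. In the fit to the varying probe sets 6 of the 24 were higher outdoors and 2 lower at an unadjusted p under 0.05, against 9.21% and 10.4% of all varying probe sets, and none passed the adjusted threshold in either fit.

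Membrane transport was the step with the most genes higher at that level, 4 of 6 that vary, against 9.21% of all varying probe sets. *CAV1* and *CAV2* encode caveolins, which shape small pits of the membrane in endothelium and other cells. *CAV2* averaged 9.45 ± 0.12 outdoors and 9.26 ± 0.12 indoors (SD, n = 7 each), a difference of 0.19 (SE 0.06, adjusted p = 0.270 from limma, exact permutation p = 0.00641). *CAV1* averaged 11.97 ± 0.06 outdoors and 11.88 ± 0.04 indoors (SD, n = 7 each), a difference of 0.09 (SE 0.03, adjusted p = 0.250 from limma, exact permutation p = 0.00932). The other two were *GOT2*, a mitochondrial aminotransferase that also binds fatty acids at the membrane, with a difference of 0.18, and the caveolar coat gene *CAVIN1*, with 0.12. They are named because their values were seen.

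At the capillary, *ANGPTL4*, which inhibits lipoprotein lipase, averaged 7.69 ± 0.35 outdoors and 7.19 ± 0.62 indoors (SD, n = 7 each), a difference of 0.50 with an adjusted p = 0.514 from limma. *VLDLR*, a receptor of triglyceride-rich lipoproteins, differed by -0.05 (adjusted p = 0.895 from limma). Among the binding proteins, none of 5 varying genes was past an unadjusted p of 0.05 in the fit to the varying probe sets. *ACBD3*, a Golgi protein with an acyl-CoA binding domain, differed by -0.08 and *ACBD5*, a peroxisomal one, by 0.06.

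Among the other activating enzymes none of 4 varying genes was past that level. *ACSF2* differed by 0.32 (adjusted p = 0.654 from limma) and the acetate-activating *ACSS2* by -0.20 (adjusted p = 0.627 from limma). The thioesterases, which split acyl-CoA back to free fatty acid, differed in both directions. Of 7 varying genes 2 were higher and 2 lower at an unadjusted p under 0.05 from limma in the fit to the varying probe sets. Of all varying probe sets 9.21% were higher and 10.4% lower. In the fit to all, 3 of the 7 were higher and 1 lower, against 5.35% and 6.07% of all probe sets. The mitochondrial *ACOT2* averaged 7.02 ± 0.37 outdoors and 6.31 ± 0.27 indoors (SD, n = 7 each), a difference of 0.70 (SE 0.17, adjusted p = 0.195 from limma, 0.0671 among the varying, exact permutation p = 0.00175). Its lowest outdoor/pasture-fed value, 6.72, lay just below its highest indoor/concentrate-fed value, 6.74. *THEM4* differed by 0.25 (SE 0.08, adjusted p = 0.276 from limma).

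**Figure D5:**
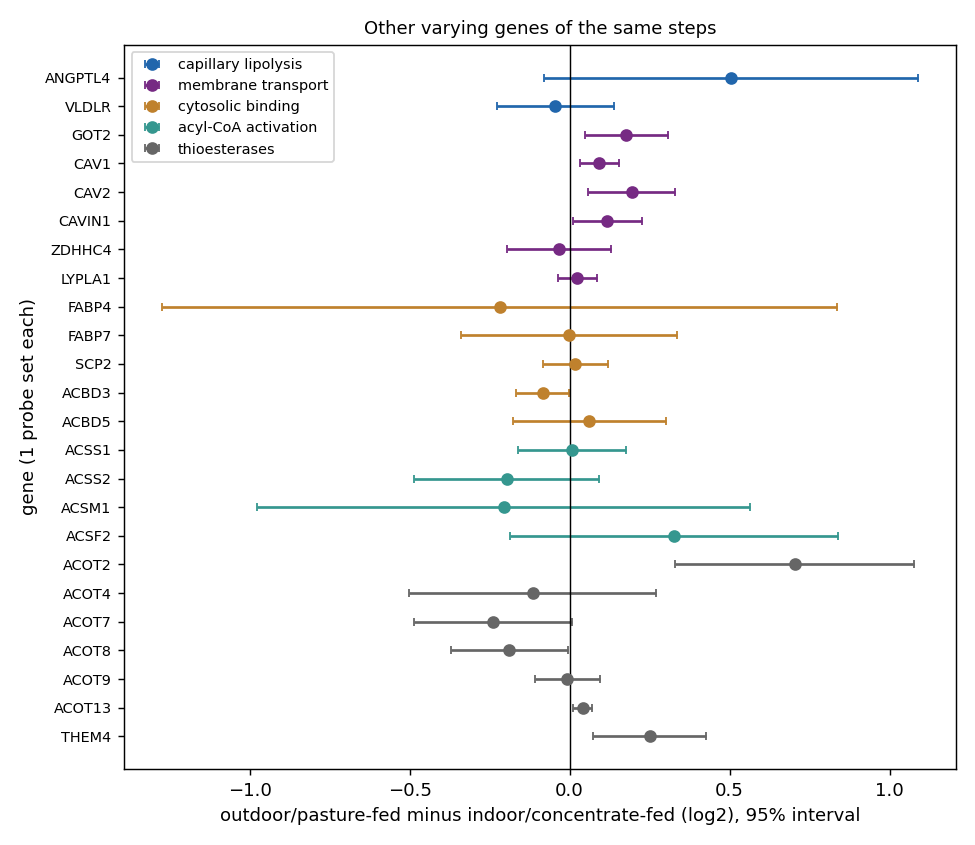
Difference between the groups (horizontal axis, log2, outdoor/pasture-fed minus indoor/concentrate-fed) and the 95% interval from limma for the 24 other varying genes of the same steps, 1 probe set each, coloured by step. The largest difference is that of *ACOT2*, at 0.70, and no gene passed the adjusted threshold.

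Once the group means were taken off, the 8 varying genes were only loosely alike over the 14 arrays. Pearson r between 2 of them was -0.44 (*ACSL1* and *SLC27A6*) to 0.66 (*ACSL1* and *FABP3*), and *ACSL3* had r of 0.62 with *LPL* and 0.62 with *CD36*. These values are descriptions over 14 arrays that share 1 normalisation. Likeness to 4809 other genes in the same measure was taken for 7 of the 8, each other gene by its most alike probe set. The genes named are the highest of that search, so their r is high in part through the search itself. It was not tested and cannot be set beside the r between members. The most alike were *GSTK1*, *TST* and *CDKN1C* for *GPIHBP1* (r of 0.90, 0.86 and 0.84), *CREM*, *TNK2* and *RIOK2* for *LPL* (0.88, 0.83 and 0.80) and *LOC510193*, *CDK5RAP1* and *GMPS* for *CD36* (0.85, 0.84 and 0.80). For *FABP5* they were *TPM3*, *SASS6* and *UBE2C* (0.86, 0.85 and 0.79), for *FABP3* *EEF1G*, *UBR2* and *PGAM5* (0.86, 0.86 and 0.84), and for *ACSL3* *CHRNA1*, *AHCYL2* and *CYP1A1* (0.85, 0.80 and 0.77). For *SLC27A6*, added after its values were seen, they were *HDAC3*, *PCCA* and *DTD1* (0.90, 0.88 and 0.88).

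The other correlations planned between members did not pass the adjustment over the 16 computed. *CD36* with *ACSL1* had r of 0.64 outdoors (exact permutation p = 0.118, adjusted p = 0.190) and 0.06 indoors (exact permutation p = 0.912, adjusted p = 0.972), with rho of 0.79 outdoors (exact permutation p = 0.0480, adjusted p = 0.128) and -0.25 indoors (exact permutation p = 0.595, adjusted p = 0.634). Without the 2 animals farthest from the median of *CD36*, r was 0.28 outdoors and -0.88 indoors, so that the values rest on single animals. *CD36* with *LPL* had r of 0.00 outdoors and 0.66 indoors, and *CD36* with *FABP3* had 0.41 outdoors and 0.31 indoors, with adjusted permutation p-values of 0.190 to 0.999.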

How the data were processed

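The deposited values are log2 expression values, which the authors obtained by quantile normalisation and summarisation of each probe set by FARMS, a factor analysis of its probes. No further normalisation was applied. The 112 control probe sets were left out and 24016 were tested. The study's filter for informative probe sets needs probe-level data, and probe sets with an SD above 0.01 stand in for it. Groups were compared with lmFit and eBayes of limma 3.58.1 (R 4.3.3), with Benjamini-Hochberg adjustment at 0.05, and single values by two-sided exact permutation over all 3432 assignments of 14 arrays to 7 and 7 (Python 3.11.15, numpy 2.4.6). The fit was also run on simulated data with independent normal values for each probe set. That run does not cover probe sets that vary together or outlying arrays, and no result here rests on it. Gene symbols came from the platform annotation (13292 probe sets with 1 symbol, 86 with several, 10638 with none) and locations from RefSeq on ARS-UCD2.0.

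Named were all members with every probe set, per step the 2 other genes of smallest p, the 3 genes most like a member over the arrays after the group means were taken off, and the leading 2 markers of a list that moved. Genes of lists have 1 probe set each, the one of highest mean. The members, the lists and the SD cut-off of the varying probe sets were chosen with earlier results of these data known. Alternatives were filters by SD and by mean, trended and robust priors, renewed quantile normalisation, median centring, array weights, a replicate block, a block of 5 consecutively numbered arrays and leaving out each array. The blocks and the leaving out of arrays were run among the varying probe sets after seeing the data. The labels do not say whether replicate numbers pair the animals, and the main fit did not treat them as pairs.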

Additional observations from a re-analysis of the deposited data

Results flagged for a closer look

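In groups of 7 animals, the highest or lowest value was called outlying where its gap to the next value exceeded Dixon's 95% limit as a share of the group's range. Of 56 groups tested, 6 were outlying, and chance alone gives about 1 in 20. Indoor/concentrate-fed replicate 3 was outlying for *LPL*, at 10.20 against 11.04 for the next animal, and for the mean of the slow fibre markers, at 12.84 against 13.37. Indoor/concentrate-fed replicate 2 was outlying for *ACSL1*, at 13.02 against 12.79. Outdoor/pasture-fed replicate 1 was outlying for *CAV2*, at 9.69 against 9.48. The mean of the red blood cell markers was outlying for outdoor/pasture-fed replicate 2, at 6.60 against 6.33, and for indoor/concentrate-fed replicate 4, at 6.65 against 6.43.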

How the results depend on the processing

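The count of members past an adjusted p of 0.05 from limma depended on which probe sets were tested. It was 0 over all probe sets, 2 with an SD above 0.001, and 3 with an SD above 0.01, 0.05 or 0.1, and 1 (*GPIHBP1*, difference 0.45, adjusted p = 0.0307 from limma) over all probe sets with the 5 consecutively numbered arrays as a block. On leaving out each array in turn it was 0 in the fit to all and 0 to 3 among the varying, an alternative chosen after seeing the data. The lowest count came without any one of outdoor/pasture-fed replicates 3 and 4 and indoor/concentrate-fed replicate 3. Leaving out one of outdoor/pasture-fed replicates 1 and 5 and indoor/concentrate-fed replicate 7 gave 1. The cause was not tested.

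With the replicate number as a block, 0 members passed in either fit, and 8 instead of 9 had an unadjusted p under 0.05. Same-numbered animals of the 2 groups had correlations of -0.18 to 0.24 in their deviations, 2 of 7 above 0.1. Of the 7 outdoor/pasture-fed arrays 2 correlated best with their own number. So few values cannot decide whether the numbers pair the animals, and the labels do not say.

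Of the 8 varying members, all but *FABP3* kept the sign of their difference under every alternative run. Within the 5 consecutively numbered arrays, 2 outdoors and 3 indoors, *LPL* differed by -0.11, which rested on outdoor/pasture-fed replicate 5. No alternative was run for *SLC27A1*. The difference of *FABP3* was 0.047 with array weights and -0.073 to 0.029 on leaving out each array. The differences of *VLDLR* and *ACBD5* were then -0.083 to 0.0035 and -0.0026 to 0.12, turning without indoor/concentrate-fed replicate 2. The *ACSL3* and *ACSL1* comparison was 0.19 after renewed quantile normalisation (exact permutation p = 0.0373) and 0.13 to 0.21 on leaving out each array, under an exact permutation p of 0.05 without outdoor/pasture-fed replicate 6, or without one of indoor/concentrate-fed replicates 1, 6 and 7.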
